A study of Mus musculus with 9 samples.

Results

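Csf1r, Ccr2, Cx3cr1, Ly6c2, F13a1, Adgre1, Irf8, Cd68 and Mrc1, 9 genes that mark monocytes and macrophages, were followed through 9 RNA sequencing libraries of mouse neutrophils. They were picked by symbol, and all 9 were found among the 54532 Ensembl IDs of the count table and among the 12012 genes that passed a filter on low counts. The neutrophils were marrow cells of C57/B6 mice, genotype wild type, and spent 12 h in medium with 0.5% fetal bovine serum. In 3 libraries they had been sorted out of a co-culture with PyMT-N cells, in 3 out of a co-culture with PyMT-M cells, and in 3 they had been kept alone. PyMT stands for polyoma middle T antigen, an oncogene used to raise mammary tumours in mice, and the sources used here do not say what N and M stand for. The labels name DMEM for the co-cultures only and do not say whether the cells kept alone went through a sorter, so sorting, medium and co-culture cannot be told apart in either comparison with neutrophils alone. Both of those comparisons share the 3 alone libraries. The labels number the replicates as biological and the library names carry the same number across the 3 groups, but no source says what the number marks or ties it to an animal, so p-values measure the spread between these libraries.

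Monocytes and neutrophils arise from shared myeloid progenitors in the marrow, and a marrow neutrophil preparation can hold some monocytes. CSF1R is the receptor that keeps monocytes and macrophages alive, CCR2 lets classical monocytes leave the marrow, and CX3CR1 is abundant on the patrolling kind. IRF8 steers progenitors towards monocytes and dendritic cells, while F4/80 (the product of Adgre1), CD68 and the mannose receptor (Mrc1) are standard macrophage markers. Csf1r messenger RNA and Ly6C protein are also known in mouse neutrophils, so these genes mark monocytes to different degrees. In bulk libraries, fewer cells of a type and less RNA per cell cannot be told apart.

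The libraries held 1641049 to 4524563 counts and 11814 to 17008 genes with a count, with both minima in alone replicate 3. S100a8, which encodes an abundant neutrophil calcium-binding protein, had 10462 to 31347 counts in each library, and the neutrophil surface gene Ly6g had 43 to 202. Scaled for depth (normalised CPM, described below), S100a8 was 3143 to 4494 in the co-culture libraries and 7891 to 12080 alone. Ly6g was 23.5 to 45.7 in the co-culture libraries and 32.4 to 66.9 alone on that scale. The T cell gene Cd3e and the haemoglobin gene Hba-a1 had 0 counts in all 9. Other T cell genes had a few, such as 13 for Trac over the PyMT-N libraries and 11 for Cd8a over the alone libraries. The sources do not say how reads shared by similar genes were counted, so a 0 does not show that a cell type was absent. Epithelial marker genes summed to 2709 ± 469 CPM in PyMT-N libraries and 95.1 ± 17.1 CPM in PyMT-M libraries, against 11.04 ± 7.36 CPM in alone libraries (SD, n = 3 each), where CPM are counts relative to the library total.

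Most of the 9 genes were lower in both co-cultures. In PyMT-N libraries against alone, 7 fell, 0 rose, and Ly6c2 and Mrc1 did not pass the test. In PyMT-M libraries against alone, 8 fell and Mrc1 rose. The median log2 fold change of the 9 was -1.34 with PyMT-N cells and -1.99 with PyMT-M cells, beside 0.12 and -0.03 over all genes tested in the same comparisons. Of all genes tested, 23.6% were called lower and 29.4% higher with PyMT-N cells, and 27.9% lower and 28.2% higher with PyMT-M cells, at an adjusted p under 0.05 in edgeR. Between the co-cultures, Csf1r and Cd68 were higher and Ccr2 lower in PyMT-N libraries, and the other 6 did not pass the test. There 15.5% of all genes were called lower and 19.1% higher.

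Genes that most leukocytes share were lower as well. Of 25 pan-leukocyte genes, such as Ptprc, which encodes CD45, and the actin-bundling gene Lcp1, 19 fell and 1 rose in PyMT-N libraries against alone, with a median log2 fold change of -1.36. All 25 fell in PyMT-M libraries against alone, with a median of -1.71. Their summed level was 13470 ± 1282 CPM in PyMT-N and 11730 ± 1835 CPM in PyMT-M libraries, against 24540 ± 548 CPM alone. Scaling the libraries to this sum moved the median of all genes to 1.28 with PyMT-N and 1.504 with PyMT-M cells, with 815 genes called lower and 7138 higher with PyMT-N cells, and 243 lower and 7901 higher with PyMT-M cells. Between the co-cultures it gave 3366 genes lower and 1456 higher in PyMT-N libraries. The scaling did not level the 25 genes themselves with PyMT-N cells, where 12 were still called lower and 8 higher against alone. With PyMT-M cells 2 of the 25 were lower and 1 higher against alone, and between the co-cultures 6 were lower and 8 higher in PyMT-N libraries. On that scale, 4 of the 9 genes fell, 2 rose and 3 were not called in each comparison with alone. The 4 that fell with PyMT-N cells were Ccr2, Cx3cr1, F13a1 and Irf8, and those with PyMT-M cells were Csf1r, Cx3cr1, F13a1 and Irf8. Ly6c2 and Mrc1 were the 2 that rose in each. Between the co-cultures, 3 were lower (Ccr2, F13a1 and Mrc1) and Csf1r higher in PyMT-N libraries on that scale. Values below are on the TMM scale (trimmed mean of M values) as normalised CPM, and the leukocyte scale is named beside a value given here where it changes its direction or call.

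**Figure D1:**
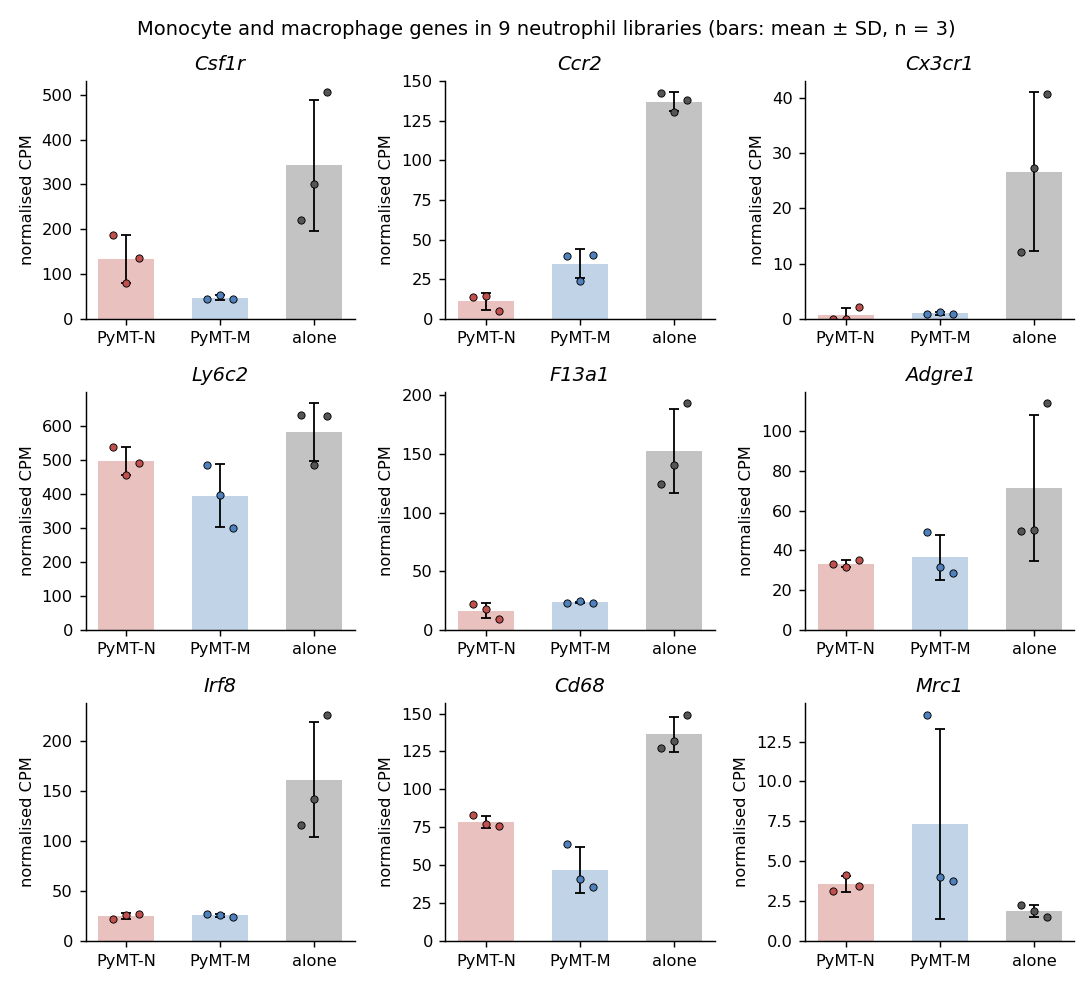
Normalised CPM of the 9 genes in each library (points), with bars for the mean and lines for the SD of 3 libraries, in PyMT-N co-culture, PyMT-M co-culture and alone. Ccr2, Cx3cr1, F13a1 and Irf8 sit far below the alone libraries in all 6 co-culture libraries, Ly6c2 overlaps between groups, and the Mrc1 mean with PyMT-M cells is raised by 1 library.

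Promoter windows are shown for the 4 genes of largest fall with PyMT-N cells, Ccr2, Cx3cr1, F13a1 and Irf8, and for Cd68, the one that held both motifs. F13a1 and Irf8 each had 2 windows, of which 1 is shown, and neither of the windows left out held a match. RefSeq promoter tables of GRCm38.p6 held windows for 7 of the 9 genes, not for Csf1r or Adgre1. Each sequence is the 250 bases before a RefSeq start, which can differ from the GENCODE gene bounds given below, on the gene's strand, 5′ to 3′, and capitals mark matches to the PU.1-type motif GAGGAA or the C/EBP-type motif TTGCNNAA, searched on both strands.
Ccr2, chr9:124101933-124102182, plus strand, GRCm38.p6: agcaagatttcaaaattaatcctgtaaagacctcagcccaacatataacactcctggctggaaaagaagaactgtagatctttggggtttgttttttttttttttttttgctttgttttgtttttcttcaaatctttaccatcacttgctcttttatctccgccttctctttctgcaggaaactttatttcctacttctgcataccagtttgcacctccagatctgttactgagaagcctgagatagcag
Cx3cr1, chr9:120068297-120068546, minus strand, GRCm38.p6: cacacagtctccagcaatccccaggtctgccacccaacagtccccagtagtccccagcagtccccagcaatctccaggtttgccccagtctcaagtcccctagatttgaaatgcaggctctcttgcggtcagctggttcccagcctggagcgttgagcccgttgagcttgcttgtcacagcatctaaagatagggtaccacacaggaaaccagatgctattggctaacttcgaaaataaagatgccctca
F13a1, chr13:37050245-37050494, minus strand, GRCm38.p6: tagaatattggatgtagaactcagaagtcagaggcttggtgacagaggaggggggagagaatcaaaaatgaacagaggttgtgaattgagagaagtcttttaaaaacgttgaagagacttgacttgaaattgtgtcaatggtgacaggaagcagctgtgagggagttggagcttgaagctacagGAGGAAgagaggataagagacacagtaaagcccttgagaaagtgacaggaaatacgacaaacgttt
Irf8, chr8:120736108-120736357, plus strand, GRCm38.p6: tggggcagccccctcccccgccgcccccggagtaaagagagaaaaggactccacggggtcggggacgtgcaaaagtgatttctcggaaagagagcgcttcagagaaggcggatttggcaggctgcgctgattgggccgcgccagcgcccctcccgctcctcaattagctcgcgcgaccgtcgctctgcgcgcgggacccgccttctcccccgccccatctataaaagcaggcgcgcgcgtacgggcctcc
Cd68, chr11:69666171-69666420, minus strand, GRCm38.p6: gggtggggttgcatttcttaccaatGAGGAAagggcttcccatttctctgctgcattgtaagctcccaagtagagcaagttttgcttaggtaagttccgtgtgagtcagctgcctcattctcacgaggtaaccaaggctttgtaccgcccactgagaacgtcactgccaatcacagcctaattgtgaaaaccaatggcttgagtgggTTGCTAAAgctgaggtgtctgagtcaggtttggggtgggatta
The 7 genes had 10 windows in all. GAGGAA was found in 5 of the 10 (windows of Ly6c2, F13a1, Cd68 and Mrc1) and in 23.3% of 32851 windows of the same length across the genome. The 2 windows of Ly6c2 overlap and share a match, so that site was counted in both. TTGCNNAA was found in 1 of 10 (Cd68) and in 9.56% of windows, and the interferon-stimulated response element (GAAA repeated with 2 bases between) in 0 of 10 and in 2.98% of windows. The 2 Cd68 matches do not overlap. A match describes letters in this window and shows no binding.

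Csf1r (ENSMUSG00000024621, chromosome 18, 61100598 to 61132149 in GRCm38) encodes the receptor for colony stimulating factor 1 and interleukin-34. Its level was 187, 80.4 and 134 normalised CPM in PyMT-N libraries and 43.2, 53.3 and 43.7 in PyMT-M libraries, against 221, 301 and 505 alone. The 3 groups did not overlap, and the 3 PyMT-M libraries were the lowest. The log2 fold change against alone was -1.34 ± 0.31 with PyMT-N cells (SE, adjusted p = 0.00212 in edgeR) and -2.86 ± 0.33 with PyMT-M cells (adjusted p = 7.38e-06). PyMT-N libraries were higher than PyMT-M libraries by 1.52 ± 0.32 on the log2 scale (adjusted p = 0.0019), a 2.86-fold difference. With leukocyte scaling the PyMT-N value was -0.20 (adjusted p = 0.545), and the other 2 comparisons kept their calls.

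Ccr2 (ENSMUSG00000049103, chromosome 9, 124101950 to 124113557) encodes the receptor for CCL2 and CCL7. It was 13.5, 14.6 and 4.52 normalised CPM in PyMT-N libraries and 39.8, 24.1 and 40.2 in PyMT-M libraries, against 143, 131 and 138 alone. The groups did not overlap, and the order was the reverse of Csf1r between the co-cultures. It fell 12.99-fold with PyMT-N cells (log2 fold change -3.70 ± 0.34, adjusted p = 4.37e-07) and 3.98-fold with PyMT-M cells (-1.99 ± 0.29, adjusted p = 5.16e-05). PyMT-N libraries were lower than PyMT-M libraries by a log2 fold change of -1.71 ± 0.35 (adjusted p = 0.0014). With leukocyte scaling the PyMT-M value against alone was -0.42 (adjusted p = 0.242).

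Cx3cr1 (ENSMUSG00000052336, chromosome 9, 119901616 to 120069879) encodes the receptor for the chemokine CX3CL1. It had 0, 0 and 10 counts in PyMT-N libraries and 4, 6 and 3 counts in PyMT-M libraries, against 27, 73 and 54 counts alone. In normalised CPM these were 0, 0 and 2.15 with PyMT-N cells and 0.86, 1.15 and 0.80 with PyMT-M cells, against 12.0, 27.3 and 40.7 alone. A count of 0 allowed up to 0.861 and 0.826 normalised CPM in the first 2 PyMT-N libraries, about the level of the PyMT-M libraries. It fell in both comparisons with alone (log2 fold change -4.85 ± 0.70, adjusted p = 2.14e-05 with PyMT-N cells, and -4.68 ± 0.66, adjusted p = 2.08e-05 with PyMT-M cells). Without PyMT-N replicate 3 that group was at 0 in both libraries left, and the adjusted p was 6.47e-05. No difference between the co-cultures was detectable at this depth.

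Ly6c2 (ENSMUSG00000022584, chromosome 15, 75108158 to 75111970) encodes a GPI-anchored surface antigen used with Ly6C antibodies to grade monocytes. It was 538, 456 and 491 normalised CPM in PyMT-N libraries and 486, 396 and 301 in PyMT-M libraries, against 632, 485 and 628 alone. Its groups overlapped in every comparison. With PyMT-N cells it did not pass the test (-0.23 ± 0.19, adjusted p = 0.323), and with PyMT-M cells it was called lower (-0.56 ± 0.19, adjusted p = 0.0202), a call lost under several alternatives. With leukocyte scaling the direction was the opposite, 0.94 with PyMT-N cells (adjusted p = 0.000153) and 1.01 with PyMT-M cells (adjusted p = 5.91e-05). Ly6c2 has a near-identical neighbour, Ly6c1, and the sources used here do not give how reads shared by both were counted, which leaves both values uncertain. Ly6c1, known from endothelial and some stromal cells, was 39.0, 79.6 and 61.99 normalised CPM in PyMT-N libraries and 19.99, 19.3 and 30.9 in PyMT-M libraries, against 0, 2.62 and 3.02 alone. It rose by 5.07 ± 0.56 on the log2 scale with PyMT-N cells (adjusted p = 1.63e-06) and by 3.69 ± 0.63 with PyMT-M cells (adjusted p = 0.000139), and the alone libraries held 11 counts in all. With 1 library left out the values ran from 4.44 to 5.70 with PyMT-N cells and from 3.06 to 4.31 with PyMT-M cells, and the extremes were those without alone replicate 1 or 2.

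Irf8 (ENSMUSG00000041515, chromosome 8, 120736358 to 120756694) encodes the transcription factor that favours the monocyte and dendritic fate over the granulocyte fate. It was 21.5, 26.2 and 27.1 normalised CPM in PyMT-N libraries and 26.9, 25.8 and 24.0 in PyMT-M libraries, against 116, 142 and 226 alone. All 6 co-culture libraries lay within a narrow band below every alone library. It fell 6.33-fold with PyMT-N cells (log2 fold change -2.66 ± 0.27, adjusted p = 1.01e-06) and 6.20-fold with PyMT-M cells (-2.63 ± 0.26, adjusted p = 1.65e-06). The difference between the co-cultures was -0.03 ± 0.28 (adjusted p = 0.944). On the leukocyte scale it fell too, with log2 fold changes of -1.49 with PyMT-N cells and -1.05 with PyMT-M cells.

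F13a1 (ENSMUSG00000039109, chromosome 13, 36867178 to 37050244) encodes the A chain of coagulation factor XIII, a transglutaminase abundant in monocytes. It was 22.1, 17.9 and 9.04 normalised CPM in PyMT-N libraries and 23.0, 24.2 and 22.9 in PyMT-M libraries, against 124, 141 and 193 alone. The alone libraries stood clear of all 6 others. It fell 9.44-fold with PyMT-N cells (log2 fold change -3.24 ± 0.30, adjusted p = 4.25e-07) and 6.45-fold with PyMT-M cells (-2.69 ± 0.28, adjusted p = 2.37e-06). Between the co-cultures it did not pass the test (-0.55 ± 0.32, adjusted p = 0.199), although the groups did not overlap. It was called lower in PyMT-N libraries on the leukocyte scale (-0.98, adjusted p = 0.0315).

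Of the 3 macrophage markers, Adgre1 and Cd68 were lower in both comparisons with alone on the TMM scale, and Mrc1 was not. Adgre1 (ENSMUSG00000004730, chromosome 17, 57358691 to 57483527), which encodes F4/80, was 33.3, 31.4 and 35.3 normalised CPM in PyMT-N libraries and 49.2, 31.5 and 28.5 in PyMT-M libraries, against 49.9, 50.4 and 114 alone. Alone replicate 3, the library of lowest depth, had more Adgre1 than any other library. Adgre1 fell with PyMT-N cells (-1.03 ± 0.33, adjusted p = 0.0155) and with PyMT-M cells (-0.90 ± 0.32, adjusted p = 0.0264). Without alone replicate 3 the values were -0.58 with PyMT-N cells (adjusted p = 0.0591) and -0.45 with PyMT-M cells (adjusted p = 0.13), and on the leukocyte scale they were 0.14 with PyMT-N cells and 0.66 with PyMT-M cells, not called in either.

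Cd68 (ENSMUSG00000018774, chromosome 11, 69664213 to 69666153), which encodes a lysosomal membrane glycoprotein of phagocytes, was 83.0, 77.4 and 75.6 normalised CPM in PyMT-N libraries and 64.1, 40.7 and 35.7 in PyMT-M libraries, against 127, 132 and 149 alone. No pair of groups overlapped. It fell 1.73-fold with PyMT-N cells (-0.79 ± 0.23, adjusted p = 0.00872) and 2.89-fold with PyMT-M cells (-1.53 ± 0.23, adjusted p = 6.75e-05). It was higher in PyMT-N than in PyMT-M libraries by 0.74 ± 0.23 on the log2 scale (adjusted p = 0.02). With leukocyte scaling none of these 3 was called, and the values were 0.38 with PyMT-N cells against alone, 0.02 with PyMT-M cells against alone, and 0.36 between the co-cultures.

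Mrc1 (ENSMUSG00000026712, chromosome 2, 14229392 to 14332057), which encodes the mannose receptor CD206 of alternatively activated and tissue macrophages, was near the limit of detection. It had 11, 15 and 16 counts in PyMT-N libraries and 66, 21 and 14 counts in PyMT-M libraries, against 5, 5 and 2 counts alone. The levels were 3.16, 4.13 and 3.44 normalised CPM with PyMT-N cells and 14.2, 4.01 and 3.73 with PyMT-M cells, against 2.23, 1.87 and 1.51 alone. The co-culture libraries did not overlap with the alone libraries, and PyMT-M replicate 1 stood far above the others of its group. Mrc1 rose with PyMT-M cells (log2 fold change 1.92 ± 0.72, adjusted p = 0.032), and without PyMT-M replicate 1 the value was 1.02 (adjusted p = 0.183). With PyMT-N cells it was 0.88 ± 0.84 (adjusted p = 0.392), and 2.02 on the leukocyte scale (adjusted p = 0.026).

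**Figure D2:**
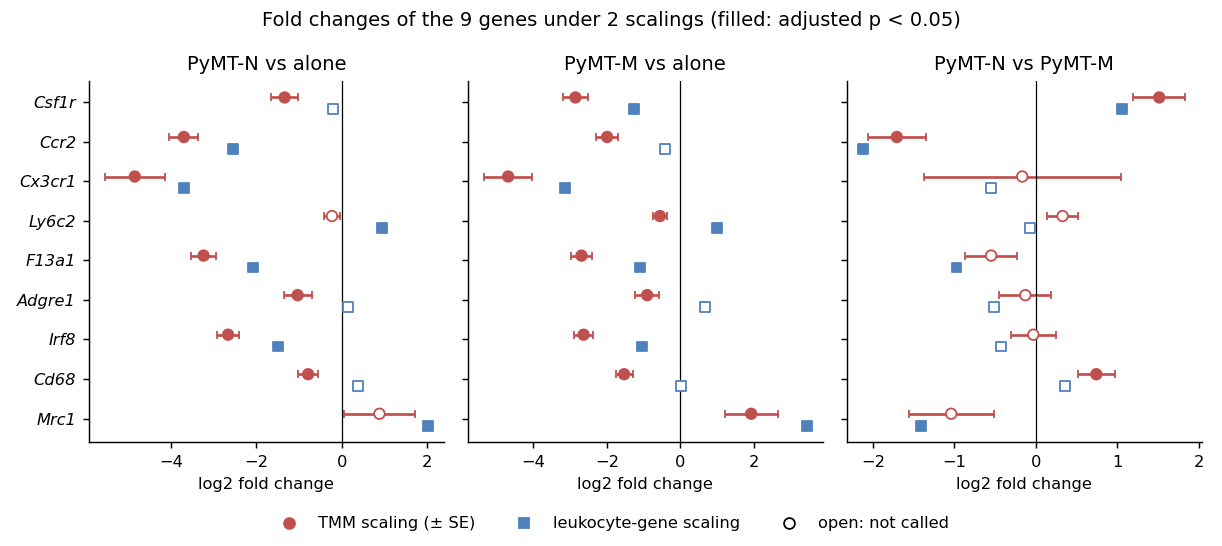
Log2 fold changes of the 9 genes in the 3 comparisons, with circles and SE bars for TMM scaling, squares for scaling to 25 leukocyte genes, and open symbols where the adjusted p is 0.05 or above. The squares lie right of the circles against alone. Csf1r, Ccr2, Cx3cr1, F13a1 and Irf8 stay left of 0 on both scales in both of those panels, and of these Cx3cr1, F13a1 and Irf8 are called each time.

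Per transcript length, the order of the genes also differed between groups. Ly6c2 came first at 273 ± 23.5 TPM in PyMT-N libraries, 254 ± 57.2 in PyMT-M libraries and 282 ± 33.5 alone (SD, n = 3 each; TPM scales counts per exon length to a common total). Cd68 came second at 94.3 ± 3.50 TPM with PyMT-N and 65.6 ± 20.4 TPM with PyMT-M cells, against 145 ± 19.1 TPM alone. Csf1r was at 35.03 ± 13.8 TPM with PyMT-N cells and 14.3 ± 1.87 with PyMT-M cells, against 79.9 ± 37.0 alone. Irf8, F13a1, Adgre1 and Ccr2 lay close together alone, at 30.7 ± 12.1, 30.4 ± 8.35, 29.6 ± 16.1 and 27.0 ± 1.02 TPM, and did not differ beyond their spread. In PyMT-N libraries Adgre1 stood above the other 3, at 15.5 ± 1.34 TPM beside 5.34 ± 0.74, 3.63 ± 1.41 and 2.40 ± 1.18 for Irf8, F13a1 and Ccr2. Mrc1 was the lowest alone, at 0.388 ± 0.0560 TPM, while Cx3cr1 was the lowest with PyMT-N cells, at 0.248 ± 0.430 TPM, and with PyMT-M cells, at 0.367 ± 0.0755 TPM.

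Other monocyte genes moved in both directions. Of 9 tested besides the genes above, 5 fell and 3 rose with PyMT-N cells, and 5 fell and 1 rose with PyMT-M cells, with a median log2 fold change of -1.06 with PyMT-N and -1.23 with PyMT-M cells. On the leukocyte scale 2 fell and 3 rose with PyMT-N cells, and 1 fell and 4 rose with PyMT-M cells. Between the co-cultures, 3 were lower and 3 higher in PyMT-N libraries on either scale. Spn, which encodes CD43, a sialoprotein high on non-classical monocytes, averaged 3.36 ± 1.82 normalised CPM with PyMT-N and 5.63 ± 3.24 with PyMT-M cells, against 30.8 ± 7.84 alone, and fell in both (adjusted p = 2.87e-05 with PyMT-N, 0.000142 with PyMT-M cells), though with PyMT-M cells not on the leukocyte scale (-0.87). Ms4a6c was at 5.54 ± 0.68 with PyMT-N and 18.2 ± 1.18 with PyMT-M cells, against 44.5 ± 18.6 normalised CPM alone, and fell in both (adjusted p = 9.13e-06 with PyMT-N, 0.0031 with PyMT-M cells). The PyMT-M value of Ms4a6c was 0.35 on the leukocyte scale, above 0 and not called. Treml4, a receptor of the TREM family, fell in both on the TMM scale (-1.22 with PyMT-N, -1.37 with PyMT-M cells) and was -0.06 with PyMT-N and 0.18 with PyMT-M cells on the leukocyte scale, not called in either. Ms4a4c fell with PyMT-N cells (-1.06 ± 0.42, adjusted p = 0.0455; 0.09 and not called on the leukocyte scale) and rose with PyMT-M cells (0.93 ± 0.34, adjusted p = 0.0293), and it was lower in PyMT-N than in PyMT-M libraries (-1.99 ± 0.34, adjusted p = 0.000283). Klf4 and Nr4a1, transcription factors needed for monocyte subsets and also immediate early genes, were higher in PyMT-N than in PyMT-M libraries, Klf4 by 1.58 ± 0.35 and Nr4a1 by 2.44 ± 0.37 on the log2 scale. Fn1, fibronectin, was 884 ± 137 normalised CPM in PyMT-N and 1.22 ± 0.95 in PyMT-M libraries, against 33.3 ± 37.3 alone, and made up most of the sum of this list with PyMT-N cells. Epithelial markers were high in the same 3 libraries, and their part in this result was not tested.

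Macrophage genes outside the 9 also moved in both directions. Of 13 tested, 6 fell and 4 rose with PyMT-N cells, and 5 fell and 5 rose with PyMT-M cells. With leukocyte scaling 6 fell and 5 rose with PyMT-N cells, and 4 fell and 7 rose with PyMT-M cells. Between the co-cultures, 5 were lower and 3 higher in PyMT-N libraries, and 6 lower and 3 higher on the leukocyte scale. Slc40a1, the iron exporter ferroportin, averaged 192 ± 46.5 normalised CPM with PyMT-N and 279 ± 67.0 with PyMT-M cells, against 1621 ± 350 alone, and fell 8.46-fold with PyMT-N and 5.81-fold with PyMT-M cells. Between the co-cultures Slc40a1 was not called on the TMM scale (-0.54) and was lower in PyMT-N libraries on the leukocyte scale (-0.96, adjusted p = 0.00101). Apoe, an apolipoprotein that macrophages secrete, fell with PyMT-N cells (-4.60 ± 0.43, adjusted p = 4.93e-07), and so did Gpnmb, a lysosomal glycoprotein (-3.11 ± 0.31, adjusted p = 1.17e-06). Axl, a TAM receptor tyrosine kinase also common in tumour cells, was 423 ± 36.9 with PyMT-N and 186 ± 21.7 with PyMT-M cells, against 24.0 ± 13.9 normalised CPM alone, and rose in both (adjusted p = 6.34e-08 with PyMT-N, 2.54e-06 with PyMT-M cells). Fcgr1, the high-affinity IgG receptor, had 635, 584 and 651 counts with PyMT-N cells and 308, 162 and 144 counts with PyMT-M cells, against 1, 15 and 0 counts alone, with no overlap. It rose in both (adjusted p = 1.77e-07 with PyMT-N, 2.49e-05 with PyMT-M cells) and was 3.56-fold higher in PyMT-N than in PyMT-M libraries. Maf, a macrophage transcription factor, was 46.3 ± 19.5 with PyMT-M cells against 16.6 ± 11.1 normalised CPM alone, called higher although the groups overlapped. Ms4a7, a tissue macrophage gene, had 3 counts in all PyMT-N libraries and 94 in all PyMT-M libraries, against 30 alone. With PyMT-M cells against alone Ms4a7 was not called on the TMM scale (0.52 ± 0.44, adjusted p = 0.332) and was higher on the leukocyte scale (2.06, adjusted p = 0.000453). The complement gene C1qa had 1 count with PyMT-N cells and 15 with PyMT-M cells, against 0 alone, each summed over 3 libraries. C1qc had 9 counts with PyMT-N cells and 48 with PyMT-M cells, against 6 alone.

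Among transcription factors of the lineage besides Irf8, 8 of 14 tested fell and 4 rose with PyMT-N cells, and 9 fell and 0 rose with PyMT-M cells. On the leukocyte scale 5 fell and 6 rose with PyMT-N cells, and 2 fell and 6 rose with PyMT-M cells. Cebpa, which myeloid progenitors need, averaged 7.21 ± 1.78 normalised CPM with PyMT-N and 14.4 ± 3.83 with PyMT-M cells, against 99.1 ± 8.04 alone, and fell in both (adjusted p = 8.63e-08 with PyMT-N, 1.03e-06 with PyMT-M cells). Spi1, which encodes PU.1, was 161 ± 39.0 with PyMT-N and 102 ± 29.0 with PyMT-M cells, against 387 ± 79.4 normalised CPM alone. On the leukocyte scale neither difference of Spi1 was called (-0.11 with PyMT-N, -0.35 with PyMT-M cells). Ikzf1, one of the 25 scaling genes, fell in both on the TMM scale (-1.76 with PyMT-N, -1.72 with PyMT-M cells), and with PyMT-M cells it was -0.15 and not called on the leukocyte scale. Cebpb, which emergency granulopoiesis and macrophage activation use, was 83.3 ± 10.9 with PyMT-N cells and 18.6 ± 0.82 with PyMT-M cells, against 15.01 ± 1.24 alone, and rose with PyMT-N cells (2.45 ± 0.26, adjusted p = 2.02e-06). With PyMT-M cells Cebpb was not called on the TMM scale (0.29 ± 0.29, adjusted p = 0.414) and was higher on the leukocyte scale (1.86, adjusted p = 0.000153). Cebpb, Irf1 and Runx1 were higher in PyMT-N than in PyMT-M libraries by 2.16, 1.52 and 1.66 on the log2 scale, and Bcl6, a repressor, was lower (-1.19). Of the 14, 6 were higher and 2 lower in PyMT-N than in PyMT-M libraries, and 5 higher and 4 lower on the leukocyte scale.

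On the CSF1R axis, the ligand gene Csf1 rose where the receptor gene was lower on the TMM scale. Il34, the other ligand gene, had 148 counts over the PyMT-N libraries and 67 over the PyMT-M libraries, against 0 alone. Epithelial markers were high in the PyMT-N libraries and mesenchymal markers in the PyMT-M libraries, and their part in these ligand counts was not tested. Csf1 averaged 210 ± 26.8 normalised CPM with PyMT-N and 103 ± 9.51 with PyMT-M cells, against 42.8 ± 13.1 alone, and rose 4.75-fold with PyMT-N cells (adjusted p = 1.39e-06) and 2.32-fold with PyMT-M cells (adjusted p = 0.000475). The list for this axis also held genes of the GM-CSF receptor, such as Csf2ra and Csf2rb. Of 12 tested genes of the list besides Csf1r, 8 fell and 3 rose with PyMT-N cells, and 10 fell and 2 rose with PyMT-M cells. With leukocyte scaling 1 fell and 6 rose with PyMT-N cells, and 1 fell and 3 rose with PyMT-M cells. Between the co-cultures, 7 were higher and 0 lower in PyMT-N libraries, and on the leukocyte scale 3 were higher, 0 lower and 9 not called. The kinase gene Fes fell in both (-1.98 with PyMT-N, -2.20 with PyMT-M cells), as did the adaptor gene Tyrobp (-1.54 with PyMT-N, -1.72 with PyMT-M cells). The phosphatase gene Ptpn6, another of the 25 scaling genes, fell as well (-0.71 with PyMT-N, -1.71 with PyMT-M cells), but on the leukocyte scale it was higher with PyMT-N cells (0.45) and not called with PyMT-M cells (-0.15). Fes was lower on the leukocyte scale too in both, and Tyrobp was not called there in either. Pik3cg, a lipid kinase subunit of leukocytes, fell with PyMT-N cells (-1.63 ± 0.22; -0.47 and not called on the leukocyte scale). Csf2rb, the shared beta chain of the GM-CSF receptor, was 6.13-fold higher in PyMT-N than in PyMT-M libraries, at 1727 ± 372 normalised CPM with PyMT-N and 282 ± 20.8 with PyMT-M cells.

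Ccl2 and Ccl7, which encode ligands of CCR2, rose in both co-cultures. Ccl2 had 689, 398 and 479 counts with PyMT-N cells and 1270, 1061 and 1170 counts with PyMT-M cells, against 4, 4 and 0 counts alone. Ccl7 had 148, 129 and 132 counts with PyMT-N cells and 729, 505 and 497 counts with PyMT-M cells, against 1, 1 and 0 counts alone. The adjusted p ran from 8.35e-09 to 3.84e-07 over these 4 comparisons with alone, and Ccl7 was lower in PyMT-N than in PyMT-M libraries by a log2 fold change of -1.86 ± 0.24. Ccl12, which encodes a further CCR2 ligand of the mouse, had 8, 5 and 0 counts with PyMT-N cells and 10, 5 and 2 counts with PyMT-M cells, against 0 counts in each alone library, and did not pass the filter on low counts. Cx3cl1, the ligand of CX3CR1, had 42, 48 and 45 counts with PyMT-N cells, against 0 counts in each alone library, which makes it at least 7.41-fold higher at a floor of 3 counts per library. Cxcr4, which retains cells in the marrow, fell in both (-3.12 with PyMT-N, -2.29 with PyMT-M cells). Cxcr2, a receptor of neutrophil chemokines, averaged 1806 ± 253 with PyMT-N and 1189 ± 156 with PyMT-M cells, against 2477 ± 301 normalised CPM alone, lower in both on the TMM scale and higher in both on the leukocyte scale (0.70 with PyMT-N, 0.52 with PyMT-M cells). Ccr1, a receptor of inflammatory CC chemokines, was higher in PyMT-N than in PyMT-M libraries (1.38 ± 0.24). Of 7 genes tested on this list besides Ccr2 and Cx3cr1, 2 fell and 4 rose with PyMT-N cells, and 3 fell and 3 rose with PyMT-M cells. On the leukocyte scale 1 fell and 6 rose in each. Between the co-cultures, 3 were lower and 3 higher in PyMT-N libraries, and 3 lower and 2 higher on the leukocyte scale. The part of the epithelial markers in the PyMT-N libraries and of the mesenchymal markers in the PyMT-M libraries in these chemokine results was not tested.

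In the Ly6 family, Ly6a, which encodes the stem cell antigen SCA-1, averaged 333 ± 51.4 normalised CPM with PyMT-N and 23.3 ± 2.20 with PyMT-M cells, against 18.5 ± 8.84 alone, and rose with PyMT-N cells (4.06 ± 0.28, adjusted p = 1.81e-08). With PyMT-M cells Ly6a was not called on the TMM scale (0.23) and was higher on the leukocyte scale (1.79, adjusted p = 0.000157). Ly6e rose with PyMT-N cells as well on the TMM scale (1.91 ± 0.24). Ly6i was 342 ± 2.87 with PyMT-N cells and 11.9 ± 4.92 with PyMT-M cells, against 31.1 ± 42.4 alone, where replicate 3 was at 79.95. Ly6d, a gene of B cell precursors, had 4 counts over the PyMT-N libraries and 5 over the PyMT-M libraries, against 174 alone, and was called lower in both. Ly6g fell with PyMT-M cells (-1.02 ± 0.27, adjusted p = 0.00471) and was 0.54 and not called on the leukocyte scale. Of 7 family members tested besides Ly6c2, 5 rose and 1 fell with PyMT-N cells, and 1 rose and 2 fell with PyMT-M cells. With leukocyte scaling 6 rose and 1 fell with PyMT-N cells, and 3 rose and 1 fell with PyMT-M cells. Between the co-cultures, 6 were higher and 0 lower in PyMT-N libraries, and 5 higher and 0 lower on the leukocyte scale.

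Of 16 lysosomal and phagocyte genes besides Cd68 and Mrc1, 9 fell and 2 rose with PyMT-N cells, and 13 fell and 1 rose with PyMT-M cells; on the leukocyte scale 4 fell and 9 rose with PyMT-N cells, and 3 fell and 8 rose with PyMT-M cells. Of 10 macrophage polarisation genes besides Mrc1, 4 fell and 6 rose with PyMT-N cells, and 5 fell and 1 rose with PyMT-M cells; on the leukocyte scale 2 fell and 6 rose with PyMT-N cells, and 2 fell and 3 rose with PyMT-M cells. Of 10 genes of coagulation and transglutamination besides F13a1, 2 fell and 7 rose with PyMT-N cells. With PyMT-M cells 3 fell and 2 rose. On the leukocyte scale 1 fell and 8 rose with PyMT-N cells, and 1 fell and 5 rose with PyMT-M cells. Of all 12012 genes tested, 23.6% fell and 29.4% rose with PyMT-N cells on the TMM scale, and 27.9% fell and 28.2% rose with PyMT-M cells. On the leukocyte scale 815 of them fell and 7138 rose with PyMT-N cells, and 243 fell and 7901 rose with PyMT-M cells. Between the co-cultures, 15.5% of all genes were lower and 19.1% higher in PyMT-N libraries on the TMM scale. On the leukocyte scale 3366 genes were lower and 1456 higher there. The same shares stand beside the counts of the lists above.

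**Figure D3:**
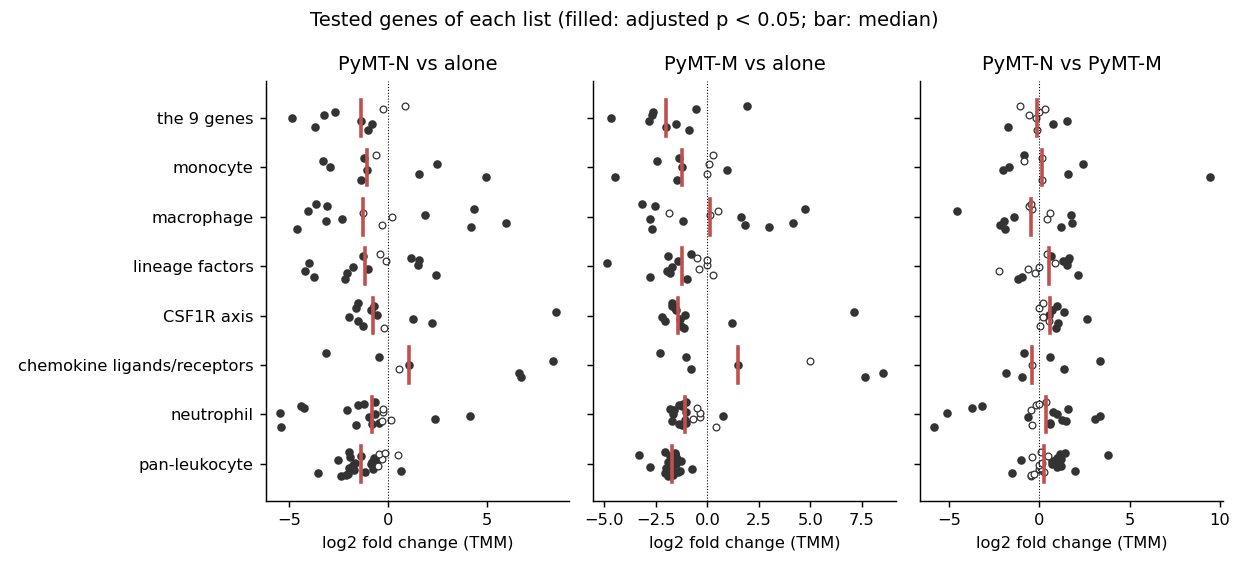
Log2 fold changes on the TMM scale of the 9 genes and of the tested genes of 7 lists (each point a gene, filled where the adjusted p is under 0.05, bars for medians) in the 3 comparisons. Against alone, the medians were -1.34 for the 9 genes and -1.36 for the pan-leukocyte genes with PyMT-N cells, and -1.99 and -1.71 with PyMT-M cells.

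Marker sums of B cells, of eosinophils, basophils and mast cells and of dendritic cells were lower in the co-culture libraries too, and the erythroid sum was higher. B cell genes summed to 18.1 ± 1.37 CPM with PyMT-N and 116 ± 28.0 with PyMT-M cells, against 670 ± 324 alone, and of 7 tested genes 7 fell with PyMT-N and 6 with PyMT-M cells. Cd79a, which B cells need for receptor signalling, had 8 counts over the PyMT-N libraries and 1 over the PyMT-M libraries, against 144 alone. Eosinophil, basophil and mast cell genes summed to 24.0 ± 2.86 CPM with PyMT-N and 17.6 ± 1.30 with PyMT-M cells, against 385 ± 53.1 alone, and of 7 tested genes 6 fell with PyMT-N and 7 with PyMT-M cells. Dendritic cell genes summed to 205 ± 11.1 CPM with PyMT-N and 174 ± 13.6 with PyMT-M cells, against 521 ± 131 alone, and of 12 tested genes 8 fell with PyMT-N and 9 with PyMT-M cells. The 9 monocyte and macrophage genes summed to 807 ± 76.0 CPM with PyMT-N and 724 ± 147 with PyMT-M cells, against 1329 ± 246 alone. Ly6c2 was the largest part of this sum in each group. Ly6c2 had 5816 counts over the PyMT-N libraries and 5462 over the PyMT-M libraries, against 3548 alone, where the libraries were shallower. In normalised CPM Ly6c2 averaged 495 ± 41.1 with PyMT-N and 394 ± 92.6 with PyMT-M cells, against 581.5 ± 83.9 alone. Neutrophil genes summed to 20460 ± 1851 CPM with PyMT-N and 22280 ± 2414 with PyMT-M cells, against 35920 ± 6538 alone, and 13 of 19 fell in each comparison with alone. On the leukocyte scale 6 of the 19 fell and 7 rose with PyMT-N cells, and 0 fell and 8 rose with PyMT-M cells, while 6 of the 7 B cell genes and 8 of the 12 dendritic genes still fell in both. Mesenchymal genes, a list that includes Vim, were highest with PyMT-M cells, at 1288 ± 90.1 CPM with PyMT-N and 4639 ± 560 with PyMT-M cells, against 1287 ± 64.1 alone. Vim was the largest part, with 5775 counts over the PyMT-N libraries and 37425 over the PyMT-M libraries, against 8565 alone. Of 11 tested genes of the list, 5 rose and 2 fell with PyMT-N cells, and 10 rose and 1 fell with PyMT-M cells. On the leukocyte scale 0 fell in either, and 5 rose with PyMT-N and 10 with PyMT-M cells. Erythroid genes summed to 333 ± 73.6 CPM with PyMT-N and 269.0 ± 54.3 with PyMT-M cells, against 37.1 ± 9.89 alone, with 6 of 9 genes at 0 in all 9 libraries. Nearly all of it was Tfrc, the transferrin receptor gene that dividing cells also express, which had 3817 counts over the PyMT-N libraries and 3167 over the PyMT-M libraries, against 266 alone. Endothelial and platelet genes summed to 44.0 ± 17.2 CPM with PyMT-N and 10.87 ± 5.13 with PyMT-M cells, against 61.4 ± 49.5 alone, and the list of T and NK cell genes summed to at most 6.30 CPM in any library, with 6 of 10 genes at 0 in all 9. The part of these other cells in the results for the 9 genes was not tested.

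**Figure D4:**
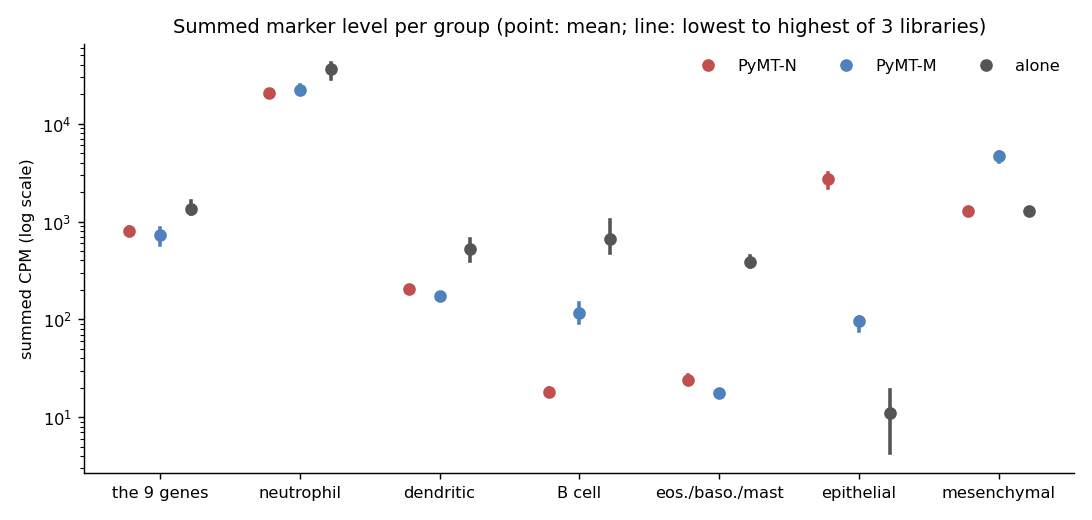
Summed CPM (log scale) of the 9 genes and of 6 marker lists, with points for the mean and lines from the lowest to the highest of 3 libraries, in PyMT-N, PyMT-M and alone libraries. B cell and eosinophil, basophil and mast cell markers lie further below the alone libraries than the 9 genes do, and epithelial markers are highest with PyMT-N cells. Ly6c2 is the largest part of the sum of the 9 genes.

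The genes most like each of the 9 across the 9 libraries were those with the highest Pearson r of log2 CPM, a description that the differences between the 3 groups dominate. For Csf1r these were Zfp646 (r = 0.985) and Syk (0.982), which encodes a kinase of leukocyte receptors. For Ccr2 they were Hhex (0.984), a transcription factor of blood precursors, and Stx17 (0.981). For Cx3cr1 they were Cpt1a (0.984), which brings fatty acids into mitochondria, and Gigyf1 (0.976). For Irf8 they were Vill (0.990) and the pentose phosphate enzyme gene Tkt (0.987). For F13a1 they were Zfp652 (0.993) and Mical1 (0.990), for Cd68 Rab31 (0.987) and Vps18 (0.983), and for Adgre1 Wls (0.954) and Nelfcd (0.951). For Ly6c2 they were Tspan5 (0.956) and the scaling gene Lcp1 (0.941). Mrc1 had the least similar partners, Eloc (0.900) and Slc25a17 (0.882). Hhex averaged 10.8 ± 5.45 normalised CPM with PyMT-N and 31.0 ± 2.18 with PyMT-M cells, against 128 ± 26.4 alone.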

How the data were processed

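Per the labels' protocols, the RNeasy Micro kit gave the RNA, of which 150 pg entered each QIAseq FX single-cell library. The deposited table held unnormalised counts for each Ensembl ID in 9 libraries, made by the authors from reads aligned with STAR to GRCm38 (mm10), per the submitters' processing notes. No source used here names the counter, its annotation or its strand setting, which leaves near-identical, overlapping and antisense genes uncertain. Symbols, coordinates and exon lengths came from GENCODE M21, which held 54495 of the 54532 IDs.

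Genes were filtered with filterByExpr (count minimum 10, total minimum 15), scaled by TMM and tested by quasi-likelihood in edgeR 4.0.16 in R 4.3.3, with robust moderation, in 1 model of all 9 libraries with a mean per group. P-values were adjusted by Benjamini-Hochberg over the 12012 genes, and calls were made below 0.05. The absolute log2 fold change over the root of F gave the SE. Normalised CPM uses TMM library sizes. Marker sums use plain library totals, and TPM are counts per exon length. A count of 0 was read against a floor of 3 counts. The scripts were first tested on simulated counts with known changes.

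The 9 genes and all gene lists were chosen with earlier results of these data known. By rule, the 9 genes and Ly6c1 were named with each library's value, then from each list and comparison up to 3 called genes (lowest p, commoner direction) plus 1 of the opposite direction, then the 2 genes of highest Pearson r with each of the 9 at a mean log2 CPM of at least 4. Some genes that met the rule are not reported here, and C1qa, Cd79a, Cd3e, Hba-a1, S100a8 and Ly6g were added as defining genes of other cells. Alternatives were size factors by relative log expression, upper quartile, library totals and the sum of 25 pan-leukocyte genes, no filter or 50 counts in 3 libraries, DESeq2 1.42.0, limma-voom (limma 3.58.1), edgeR without robust moderation or with legacy estimation, a fit of the compared groups only, the replicate number as a block, a threshold of 0.01 or a change of 1 or more on the log2 scale, and leaving out each library.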

Additional observations from a re-analysis of the deposited data

Results flagged for a closer look

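The response to co-culture differed between PyMT-N and PyMT-M cells for 3 of the 9 genes and for Ly6c1, by the test of the difference itself in edgeR, where 15.5% of all genes tested were called lower and 19.1% higher in PyMT-N libraries, so the share among the 9 is near that of all genes. On the log2 scale, PyMT-N over PyMT-M, Csf1r was 1.52, Cd68 0.74, Ly6c1 1.38 and Ccr2 -1.71. The groups of these 4 genes did not overlap between the co-cultures, nor did those of F13a1, which was not called (adjusted p = 0.199 in edgeR). How many of all genes tested did not overlap was not counted. Cd68 was 0.36 and not called on the leukocyte scale (adjusted p = 0.268).

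Among the other genes named, the difference was 9.44 for Fn1, 2.44 for Nr4a1, 1.58 for Klf4 and -1.99 for Ms4a4c on the monocyte list. On the macrophage list it was 1.83 for Fcgr1, -1.95 for Gpnmb and -2.15 for C1qc, the last on 9 counts over the PyMT-N libraries and 48 over the PyMT-M libraries. The fitted value of Ms4a7, -4.58, rests on 3 counts over the PyMT-N libraries and depends on the prior count. Among lineage factors it was 2.16 for Cebpb, 1.66 for Runx1, 1.52 for Irf1 and -1.19 for Bcl6. On the list of the CSF1R axis it was 1.03 for Csf1, 1.00 for Ptpn6, and 2.62 for Csf2rb, which belongs to the GM-CSF receptor. Among chemokine genes it was 3.36 for Cx3cl1, 1.38 for Ccr1, 0.60 for Cxcr2 (0.18 and not called on the leukocyte scale) and -1.86 for Ccl7. In the Ly6 family it was 4.81 for Ly6i, 3.83 for Ly6a and 1.44 for Ly6e. Epithelial markers were high in the PyMT-N libraries and mesenchymal markers in the PyMT-M libraries, and their part in these differences was not tested.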

How the results depend on the processing

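The number of the 9 genes called was 5 to 7 with PyMT-N cells against alone (7 as reported), 6 to 9 with PyMT-M cells against alone (9), and 2 to 4 between the co-cultures (3), over all 23 alternatives. Ccr2, Cx3cr1, F13a1 and Irf8 kept direction and call with PyMT-N cells wherever they were tested, and Csf1r, Cx3cr1, F13a1, Irf8 with PyMT-M cells. Cx3cr1 and Mrc1 did not pass the filter of 50 counts. Scaling to 25 pan-leukocyte genes reversed directions: with PyMT-N cells against alone Ly6c2 was 0.94, Adgre1 0.14 and Cd68 0.38, with PyMT-M cells against alone Ly6c2 was 1.01, Adgre1 0.66, Cd68 0.021, Treml4 0.18, Ms4a6c 0.35 and Ly6g 0.54, and between the co-cultures Ly6c2 was -0.07. It also reversed Ms4a4c (0.09) and Ptpn6 (0.45) with PyMT-N cells, and Cxcr2 with both (0.70 with PyMT-N, 0.52 with PyMT-M cells). That scale follows the most abundant of its genes, Lcp1 and Coro1a, and Ptpn6 and Ikzf1 belong to it. With library totals Ly6c2 was 0.065 with PyMT-N cells, and the median of all genes was 0.41 with PyMT-N and 0.44 with PyMT-M cells, with 2112 genes lower and 4315 higher with PyMT-N cells, 1913 lower and 4571 higher with PyMT-M cells, and 2703 lower and 1834 higher between the co-cultures, where TMM gave 2831 and 3533, 3353 and 3382, and 1865 and 2297. Leaving out 1 library in turn, the value between the co-cultures ran from -4.74 to 0.35 for Cx3cr1, from -0.27 to 0.15 for Adgre1 and from -0.096 to 0.061 for Irf8, none called as reported. Among the 9 genes, calls lost on leaving out some library were those of Ly6c2 and Adgre1 with PyMT-M cells, Adgre1 with PyMT-N cells, Mrc1 with PyMT-M cells and Cd68 between the co-cultures. The Ly6c2 call with PyMT-M cells was lost with size factors by relative log expression, library totals, DESeq2, the compared groups only, and without PyMT-M replicate 2 or 3 or alone replicate 1 (adjusted p from 0.0571 to 0.848), and that of Mrc1 without PyMT-M replicate 1 or alone replicate 1 or 2. Adgre1 lost its call without PyMT-N replicate 2 or alone replicate 3 with PyMT-N cells, without PyMT-M replicate 2 or 3 or alone replicate 3 with PyMT-M cells, with library totals in both, and with PyMT-M cells also with size factors by relative log expression (adjusted p = 0.0527), DESeq2 (0.0554) and the compared groups only (0.0956). Cd68 with PyMT-N cells lost its call with library totals (-0.50). Cd68 between the co-cultures was lost with library totals (0.53) and without PyMT-N replicate 1 or 3 or PyMT-M replicate 2 or 3 (0.58 to 0.78). Their cause was not tested. Without alone replicate 3 the number of genes called was 7182 with PyMT-N and 7505 with PyMT-M cells, against 6364 and 6735 with it. Library names share a number across groups, and no source says what it marks. No pairing effect was seen: deviations of same-numbered libraries correlated at r from -0.0781 to 0.0285, and a library correlated best with its own number in 4 of 18 cases. Whether the samples were paired is therefore not known. With the replicate block 7 of the 9 genes were called with PyMT-N cells, 9 with PyMT-M cells and 3 between the co-cultures, as without it, and 6103, 6517 and 3967 of all genes. Depth limits Cx3cr1 and Mrc1 most, with 10 and 42 counts over the PyMT-N libraries.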
